A study of Homo sapiens with 4 samples.

Results

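The microRNA processing machinery is the set of proteins that turns a microRNA gene's primary transcript into a short RNA held by an Argonaute protein. Its 10 listed genes are DROSHA, DGCR8, XPO5, DICER1, TARBP2, PRKRA and AGO1 to AGO4, and they were followed through every probe set that the platform annotation gives to one of these genes alone. This found 27 probe sets for 9 of the 10 genes, out of 19775 genes that have a probe set of their own on the array. The values come from Raji cells, a long-established line of Burkitt lymphoma, a B-cell tumour, that carries Epstein-Barr virus. RNA of a DLEU1-downregulated clone, made with TALENs (engineered enzymes that introduce a break in a selected stretch of DNA), and of a wild-type control clone was hybridised to Affymetrix HG-U133 Plus 2.0 arrays, with 2 arrays for each clone. Both clones were grown in RPMI medium with serum, and the treatment label names DLEU1-directed TALENs on all 4 arrays, those of the control clone included. Each group is 1 clone, so a difference between the clones and an effect of lowering DLEU1 cannot be told apart. Whether the duplicates are separate cultures or repeated hybridisations is not given in the sources used here, so every p-value rests on array-to-array spread alone, and that spread may be technical.

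In the nucleus, the ribonuclease DROSHA and its RNA-binding partner DGCR8 cut the hairpin out of the primary transcript, and XPO5 carries it to the cytoplasm together with the GTPase RAN. There the ribonuclease DICER1, assisted by TARBP2 or PRKRA, removes the loop, and an Argonaute protein keeps a single strand of the resulting duplex. AGO2 is the main Argonaute of human cells that can cut a target RNA by itself, while all of them can recruit factors that shorten the tail and remove the cap of the target. In Burkitt lymphoma the MYC protein is known to lower many microRNAs, and Epstein-Barr virus encodes microRNAs that pass through the same machinery.

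The intensities are MAS5 signals in arbitrary units, and the arrays differed in brightness. The trimmed mean intensity was 172 and 196 on the DLEU1-downregulated arrays and 163 and 131 on the control arrays. The median intensity was 18.7 and 20 on the DLEU1-downregulated arrays and 22.6 and 18.4 on the control arrays. The highest median was thus on a control array, and the difference in brightness was not the same at all intensities. All values below were therefore quantile normalized, which gives the 4 arrays the same distribution, and the log2 change is the mean of log2(intensity + 16) on the DLEU1-downregulated arrays minus that on the control arrays. Results on the values as deposited stand beside many of them. Counts of neighbouring and chromosome genes were made after quantile normalization only. The median log2 change over all tested probe sets was 0.16 as deposited, against 0.01 after quantile normalization. As deposited, the log2 values of the arrays correlated across probe sets at 0.989 within the DLEU1-downregulated clone, at 0.986 within the control clone and at 0.970 to 0.971 between clones. The probe set of DLEU1 read 505 and 513 in the DLEU1-downregulated clone, against 1400 and 1300 in the control clone. Its log2 change was -1.38 ± 0.07 (SE) with limma adjusted p = 2.92e-06, or -1.04 as deposited (adjusted p = 3.20e-04). With 6 possible assignments of the arrays, the exact two-sided permutation p was 0.333, which is also the lowest value open to it. Whether this probe set lies within the cut stretch of DLEU1 is not known, because no TALEN site was stated. Of 8 B-cell markers, 7 had a probe set of their own, and these read 378 to 7773 on single arrays. Their summed intensity after quantile normalization was 14652 to 14733 in the DLEU1-downregulated clone and 17916 to 17936 in the control clone. Past the threshold, 6 of 7 genes fell and limma called 0 higher, beside 20.6% of all tested genes in each direction. This was not repeated on the values as deposited, and the part of this difference in the results was not tested. Markers of T cells, myeloid, epithelial, fibroblast and erythroid cells summed to at most 233 for any list on any array. The T-cell sum was 83.6 to 121 in the DLEU1-downregulated clone, against 182 to 198 in the control clone. In the same order, the fibroblast sum was 102 to 158 against 175 to 233, and the myeloid sum 51.1 to 51.4 against 33.4 to 42.3. The epithelial sum was 59.9 to 72 against 65.7 to 65.8, and the erythroid sum 59.5 to 70.9 against 52.3 to 59.5.

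Within the machinery, AGO1 and AGO2 were higher in the DLEU1-downregulated clone, DROSHA and XPO5 were moderately higher, and AGO4 was lower. AGO1 was 1.82-fold and AGO2 1.47-fold the control level in the brightest probe set of each gene, while XPO5 was 1.39-fold and DROSHA 1.22-fold. DICER1, TARBP2, PRKRA and AGO3 did not pass the test in their brightest probe sets. By brightest probe set, 4 of 9 genes rose and 1 fell past a limma adjusted p of 0.05, read against 20.6% of 13292 tested genes that rose and 20.6% that fell. In either direction that is 5 of 9 against 41.2% of genes. As deposited, 4 of 9 rose and limma found 0 that fell, against 20.3% of genes higher and 5.75% lower, or 26.1% in either direction. The median log2 change of the 9 genes was 0.24 and of all tested genes -0.01, or 0.56 and 0.19 as deposited. Of the 27 probe sets, 24 were bright enough to be tested. Among these 8 rose and 1 fell, while 17.1% of all tested probe sets rose and 16.7% fell, 33.8% in all. As deposited, 8 rose and limma called 0 lower, against 17.2% higher and 5.11% lower, 22.3% in all. On 13 probe sets both DLEU1-downregulated arrays read higher than both control arrays, and on 4 both read lower. Such separation upwards was seen for 33.5% of all tested probe sets and downwards for 32.5%, since groups of 2 arrays often fail to overlap.

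**Figure D1:**
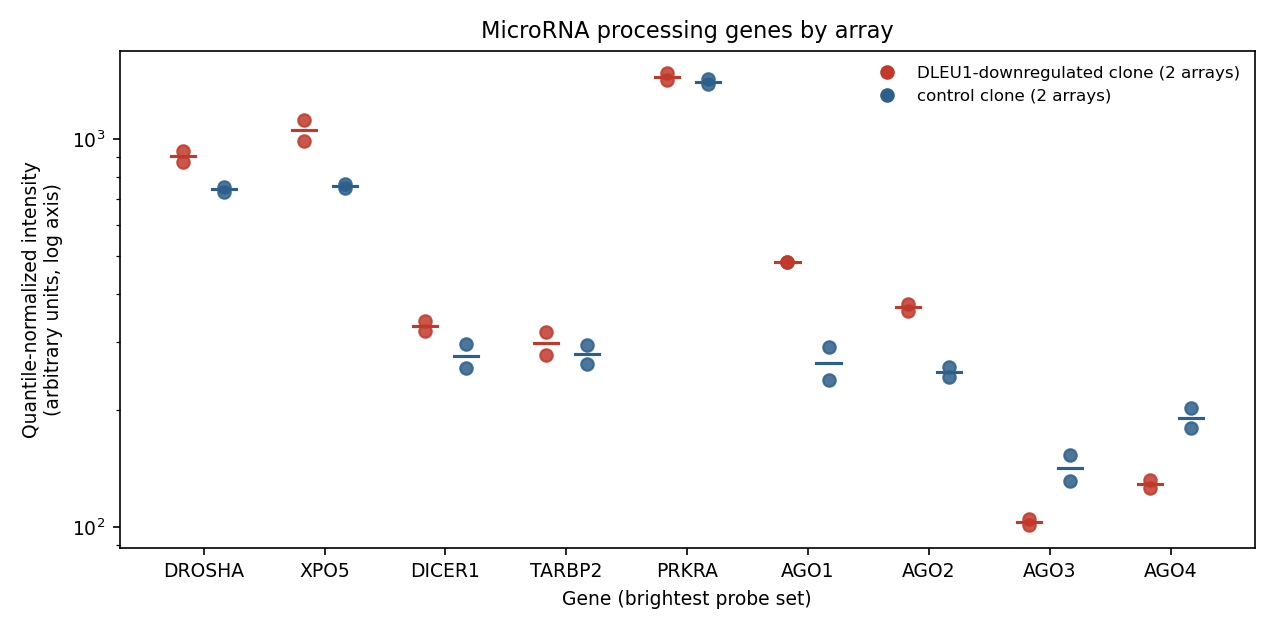
Quantile-normalized intensity (arbitrary units, log axis) of the brightest probe set of each of the 9 measured genes. Points are single arrays, 2 for the DLEU1-downregulated clone at left and 2 for the control clone at right of each gene, and lines are means; levels of different genes are not comparable because each probe set has its own response. AGO1 and AGO2 sit higher in the DLEU1-downregulated clone, AGO3 and AGO4 lower, and PRKRA and TARBP2 overlap. The AGO3 probe set shown did not pass (limma adjusted p = 0.0505), and another AGO3 probe set, 235782_at, rose (log2 change 0.80).

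DROSHA, the nuclear ribonuclease that opens the pathway, was measured by 1 probe set. It read 934 and 876 in the DLEU1-downregulated clone, against 732 and 755 in the control clone. Both arrays of the DLEU1-downregulated clone were above both control arrays. The log2 change was 0.28 ± 0.07 (SE) with limma adjusted p = 0.0124, and 0.64 as deposited (adjusted p = 0.0385). The call was lost with eBayes without a trend and without DLEU1-downregulated replicate 1, within a range of adjusted p from 1.70e-05 to 0.123 over 14 alternatives. DGCR8, the partner that recognises the hairpin, had no probe set of its own. All 4 of its probe sets are annotated together with MIR1306, a microRNA gene inside the DGCR8 gene, so no level is given for it. The mature sequences of the microRNAs in DGCR8 are shown because they mark this gene as both a part of the machinery and a source of its substrates. They are from RefSeq on GRCh38.p14, 5′ to 3′, with the seed (bases 2 to 8) in capitals.
hsa-miR-1306-5p: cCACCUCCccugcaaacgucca
hsa-miR-1306-3p: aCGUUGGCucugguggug
hsa-miR-3618: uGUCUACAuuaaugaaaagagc
They lie at chr22:20086072-20086093, chr22:20086112-20086129 and chr22:20085797-20085818 on the plus strand, which is also the strand of DGCR8. No seed is shared among these 3 sequences.

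XPO5, the exporter of hairpin precursors, rose in its brightest probe set. 223056_s_at read 1121 and 992 in the DLEU1-downregulated clone, against 751 and 769 in the control clone. The groups did not overlap, and the log2 change was 0.46 ± 0.07 (SE) with limma adjusted p = 0.00141, or 0.81 as deposited (adjusted p = 0.00598). It missed the threshold only with eBayes without a trend among 14 alternatives (adjusted p = 0.0521, the range being 6.43e-08 to 0.0521). The other XPO5 probe sets were dimmer and moved less, at 318 and 312 against 256 and 295 for 223055_s_at, and at 319 and 322 against 243 and 283 for 223057_s_at, with the DLEU1-downregulated clone first. Neither passed, with log2 changes of 0.19 (adjusted p = 0.201) and 0.28 (adjusted p = 0.0715), although both read higher on both DLEU1-downregulated arrays. All 3 XPO5 probe sets thus pointed the same way. Among its 10 nearest tested genes limma called 0 higher and 3 lower (median log2 change -0.17), beside 17% higher and 24.6% lower over the 735 tested genes of chromosome 6 (median -0.10).

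DICER1, the cytoplasmic ribonuclease, gave different answers in its probe sets. The pair with nearly the same, highest brightness differed in whether they passed. 213229_at read 339 and 320 in the DLEU1-downregulated clone, against 296 and 257 in the control clone (log2 change 0.24 ± 0.10 SE, limma adjusted p = 0.103). 212888_at read 339 and 356 in the DLEU1-downregulated clone, against 225 and 299 in the control clone (log2 change 0.40 ± 0.13 SE, adjusted p = 0.0423). The clones did not overlap in either. The call of 212888_at was lost in 5 of 14 alternatives, without control replicate 1 (log2 change 0.21) and without either array of the DLEU1-downregulated clone among them, and its adjusted p ranged from 5.94e-05 to 0.19. A dimmer probe set, 206061_s_at, read 103 and 97.8 against 103 and 99.6 in the control clone, a log2 change of -0.01. The dim 216260_at had a log2 change of 0.18 (adjusted p = 0.597), and 216281_at and 216280_s_at, at 1.62 to 15.9 on all arrays, were too dim to be tested.

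The partners of DICER1 showed overlapping groups. TARBP2, which helps DICER1 hand the duplex to an Argonaute, read 278 and 318 in the DLEU1-downregulated clone, against 264 and 295 in the control clone in 203677_s_at (log2 change 0.09 ± 0.11 SE, adjusted p = 0.586). Its dim probe set 239389_at had a log2 change of -0.25 (adjusted p = 0.452). PRKRA, the related double-stranded RNA-binding protein that also activates the kinase PKR, read 1481 and 1420 in the DLEU1-downregulated clone, against 1428 and 1387 in the control clone in 209139_s_at. The highest control array lay between both DLEU1-downregulated arrays, and the log2 change was 0.04 ± 0.06 SE (adjusted p = 0.605). The dim probe set 237107_at had a log2 change of -0.05 (adjusted p = 0.873). As deposited the brightest probe sets of TARBP2 and PRKRA had log2 changes of 0.40 and 0.39, and neither passed (adjusted p = 0.285 and 0.208).

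**Figure D2:**
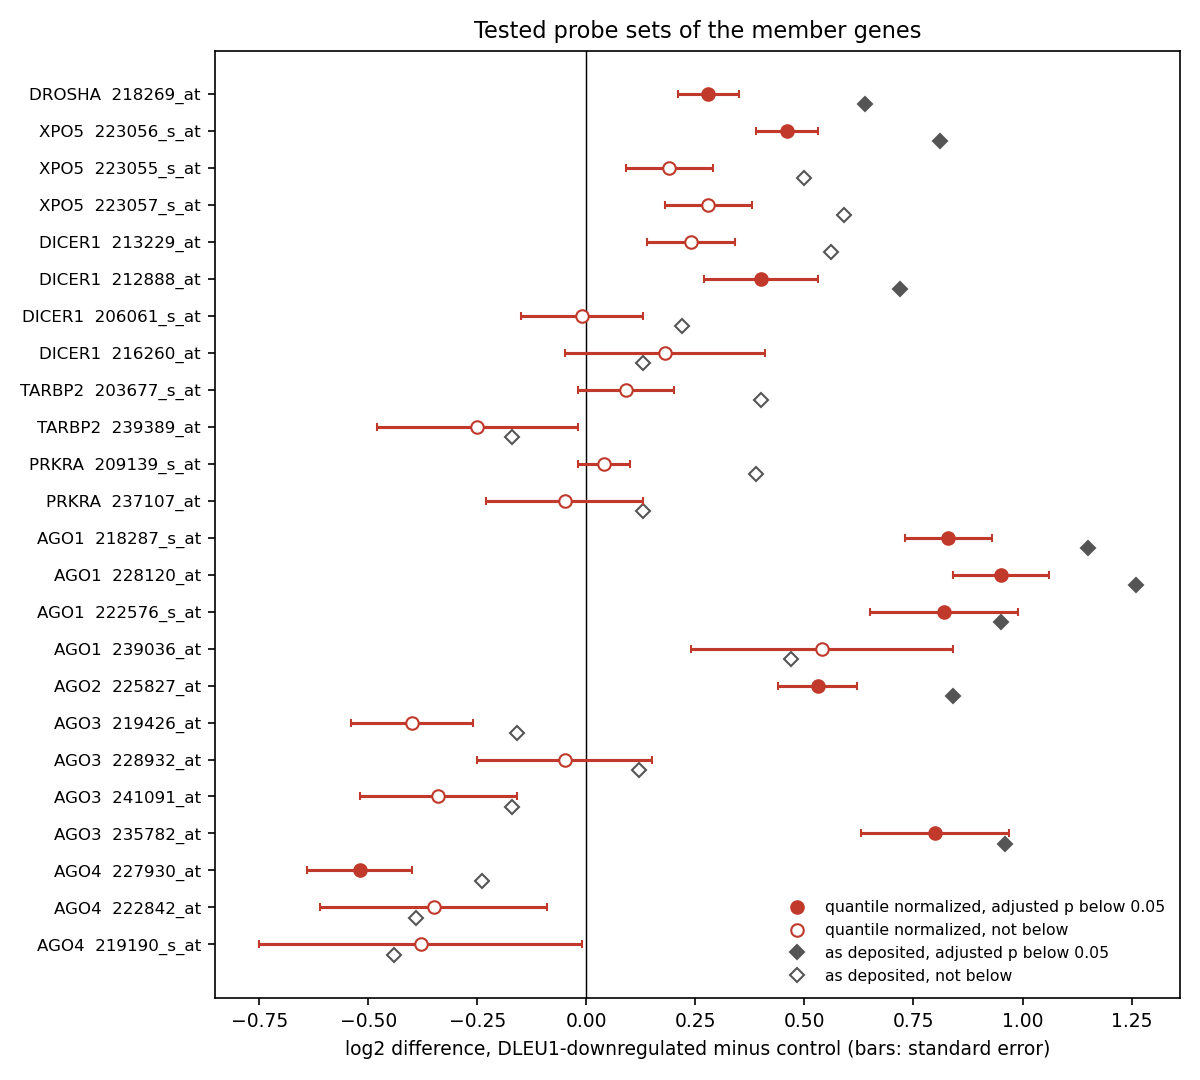
The log2 difference, DLEU1-downregulated minus control, for the 24 tested probe sets, with the standard error as bars for quantile-normalized values (circles) and the values as deposited (diamonds). Filled symbols passed a limma adjusted p of 0.05. AGO1 has 3 filled circles between 0.82 and 0.95, 235782_at of AGO3 lies at 0.80 apart from the other AGO3 probe sets, and 227930_at of AGO4 is filled for quantile-normalized values but not as deposited.

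AGO1 had the largest change among the 9 genes in the brightest probe sets, and its probe sets agreed in direction. 218287_s_at read 483 and 483 in the DLEU1-downregulated clone, against 240 and 291 in the control clone (log2 change 0.83 ± 0.10 SE, limma adjusted p = 3.43e-04). 228120_at read 508 and 425 in the DLEU1-downregulated clone, against 228 and 236 in the control clone (log2 change 0.95 ± 0.11 SE, adjusted p = 1.70e-04). As deposited the log2 changes of 218287_s_at and 228120_at were 1.15 and 1.26. The groups did not overlap in either, and both passed in all 14 alternatives, with adjusted p up to 0.0239 and 0.0192. The dimmer 222576_s_at read 85.7 and 78.3 against 38.3 and 40.8 in the control clone (log2 change 0.82, adjusted p = 0.0057). It lost the call without DLEU1-downregulated replicate 1 (adjusted p = 0.0694, the highest of 14 alternatives that began at 2.62e-05). The dimmest, 239036_at, read 23.1 and 20.7 against 17.9 and 4 in the control clone and did not pass (log2 change 0.54, adjusted p = 0.203).

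AGO2, the Argonaute with slicer activity, was measured by 1 probe set of its own. Another 3 probe sets name it together with CASC7 and were not used. 225827_at read 377 and 361 in the DLEU1-downregulated clone, against 259 and 243 in the control clone. The clones did not overlap, and the log2 change was 0.53 ± 0.09 (SE) with limma adjusted p = 0.0023. As deposited it was 0.84 (adjusted p = 0.00882). The call held in all 14 alternatives, with adjusted p from 2.67e-06 to 0.0349. Tested genes of chromosome 8, where AGO2 lies, had a median log2 change of -0.10, with 16.4% called higher and 28.6% lower. Among the 10 nearest tested genes of AGO2, 2 rose and 1 fell.

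AGO4, an Argonaute that is not known for slicing, was lower in its brightest probe set. 227930_at read 126 and 132 in the DLEU1-downregulated clone, against 180 and 203 in the control clone. The groups did not overlap, and the log2 change was -0.52 ± 0.12 (SE) with limma adjusted p = 0.0107. This call depended on the scaling, although a common trimmed mean kept it (adjusted p = 0.00694). Leaving out single arrays gave log2 changes from -0.60 to -0.44. As deposited the log2 change was -0.24 (adjusted p = 0.555), and the call was also lost with median centring and without control replicate 2 (-0.44) or either DLEU1-downregulated replicate (-0.48 and -0.54). The adjusted p ranged from 0.00694 to 0.555 over 14 alternatives, and the log2 change was below 0 in all of them. The dimmer 222842_at and 219190_s_at had log2 changes of -0.35 (adjusted p = 0.349) and -0.38 (adjusted p = 0.47), and 1569408_at was too dim to be tested.

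AGO3 could not be given a single direction. In the brightest probe set, 219426_at, it read 105 and 101 in the DLEU1-downregulated clone, against 153 and 131 in the control clone (log2 change -0.40 ± 0.14 SE, limma adjusted p = 0.0505). As deposited the log2 change of 219426_at was -0.16 (adjusted p = 0.721). In 235782_at AGO3 read 88.8 and 96.6 in the DLEU1-downregulated clone, against 50.3 and 43 in the control clone (log2 change 0.80 ± 0.17 SE, adjusted p = 0.00585). As deposited the log2 change of 235782_at was 0.96 (adjusted p = 0.00191). The groups did not overlap in either, with opposite order. The adjusted p of 219426_at ranged from 0.0344 to 0.721 over 14 alternatives. That of 235782_at ranged from 1.55e-05 to 0.0632, and its call was lost without DLEU1-downregulated replicate 2. The remaining probe sets did not pass, with log2 changes of -0.34 for 241091_at (adjusted p = 0.174) and -0.05 for 228932_at (adjusted p = 0.869). Which AGO3 transcripts each probe set detects was not examined here.

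The Argonaute probe sets were also set against each other on the same array, which removes a brightness factor common to all probe sets of that array but not one that depends on intensity. The difference of log2(intensity + 16) between the brightest AGO1 and AGO4 probe sets was 1.82 and 1.75 on the DLEU1-downregulated arrays, against 0.39 and 0.48 on the control arrays. This is a shift of 1.35, and of 1.39 on the values as deposited. For AGO2 minus AGO4 the difference was 1.47 and 1.35, against 0.49 and 0.24 on the control arrays, a shift of 1.05 (1.09 as deposited). AGO2 minus AGO3 shifted by 0.93 and AGO1 minus AGO3 by 1.23, with no overlap between clones. The pair AGO3 minus AGO4 shifted by 0.11, at -0.22 and -0.34 against -0.21 and -0.58, with overlap. For AGO1 minus AGO2 the shift was 0.30, at 0.34 and 0.40 against -0.10 and 0.25 on the control arrays. Exact two-sided permutation tests over arrays gave p = 0.333 for each of the pairs whose clones did not overlap, the smallest possible with 4 arrays. The 6 pairs share probe sets and are not independent. On these arrays AGO1 and AGO2 changed unequally with AGO4 and with the brightest AGO3 probe set, and the ratios do not tell which of the genes moved. The near-equal shifts on both scales follow largely from taking the difference within an array and are not a second test.

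**Figure D3:**
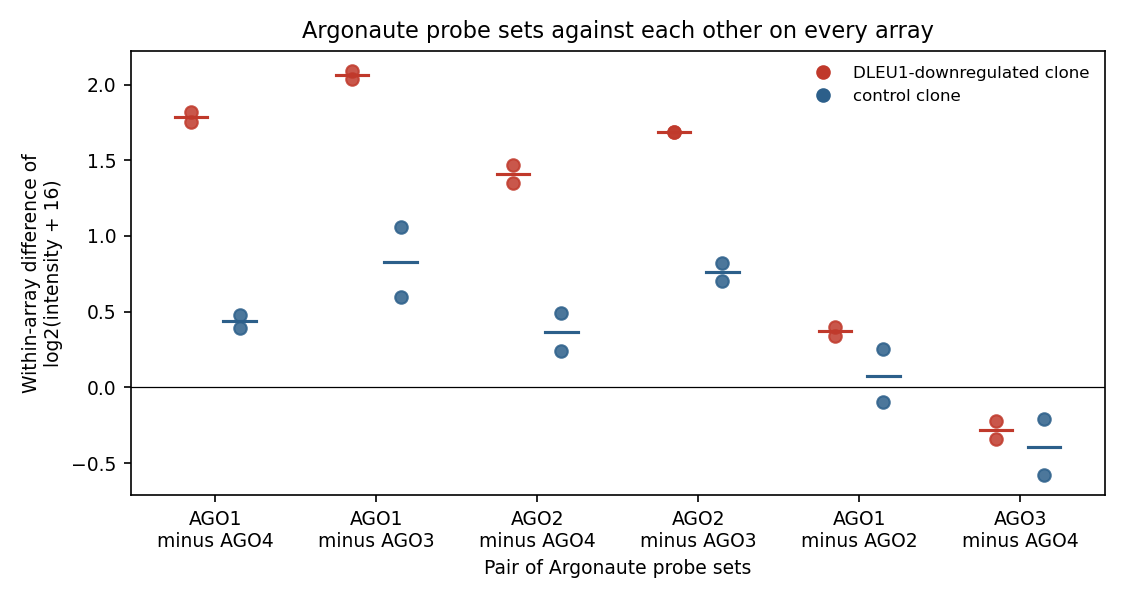
Within-array difference of log2(intensity + 16) between the brightest probe sets of 2 Argonaute genes, for 6 pairs, on quantile-normalized values. Points are arrays, the DLEU1-downregulated clone left of the control clone, and lines are means. In the 4 pairs that set AGO1 or AGO2 against AGO3 or AGO4 the clones lie apart by 0.93 to 1.35, whereas AGO3 minus AGO4 overlaps.

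AGO4, AGO1 and AGO3 follow each other in this order on chromosome 1, with only the pseudogene CFAP97P1 between AGO1 and AGO3 in the RefSeq annotation. AGO1, higher on both scales, and AGO4, lower past the threshold after quantile normalization but not as deposited, are thus direct neighbours. Of the 10 nearest tested genes around AGO4, AGO1 and AGO3 among them, 6 rose and limma called 0 lower (median log2 change 0.32). The windows overlap, and those of AGO1 and AGO3 include AGO4. Around AGO1, 5 of 10 rose and 1 fell (median 0.15), and around AGO3, 6 rose and 2 fell (median 0.32). Over all 1315 tested genes of chromosome 1, 19.5% rose and 23.6% fell. The promoters of these 3 genes, 250 bases before to 50 after the annotated start, are shown because neighbours on the same strand gave different changes. The sequences are from RefSeq on GRCh38.p14, plus strand, 5′ to 3′. Capitals mark matches to the CCAAT box, which reads ATTGG on the opposite strand, and to the GC box GGGCGG, which reads CCGCCC on the opposite strand. The TATA box TATAAA was also searched on both strands, as was CACGTG, the E-box, and neither had a match in these windows.
AGO4 promoter, chr1:35807766-35808065: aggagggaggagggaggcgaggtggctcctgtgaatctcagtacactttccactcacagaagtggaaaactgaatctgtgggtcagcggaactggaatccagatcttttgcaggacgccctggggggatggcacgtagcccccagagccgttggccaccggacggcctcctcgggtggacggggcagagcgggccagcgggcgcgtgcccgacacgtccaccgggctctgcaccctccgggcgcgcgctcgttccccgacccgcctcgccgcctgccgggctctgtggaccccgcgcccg
AGO1 promoter, chr1:35882959-35883258: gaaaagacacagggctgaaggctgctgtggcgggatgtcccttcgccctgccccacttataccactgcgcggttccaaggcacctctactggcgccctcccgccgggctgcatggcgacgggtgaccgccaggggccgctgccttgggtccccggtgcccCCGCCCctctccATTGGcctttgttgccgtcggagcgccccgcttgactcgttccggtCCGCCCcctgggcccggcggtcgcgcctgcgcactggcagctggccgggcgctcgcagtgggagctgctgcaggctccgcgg
AGO3 promoter, chr1:35930855-35931154: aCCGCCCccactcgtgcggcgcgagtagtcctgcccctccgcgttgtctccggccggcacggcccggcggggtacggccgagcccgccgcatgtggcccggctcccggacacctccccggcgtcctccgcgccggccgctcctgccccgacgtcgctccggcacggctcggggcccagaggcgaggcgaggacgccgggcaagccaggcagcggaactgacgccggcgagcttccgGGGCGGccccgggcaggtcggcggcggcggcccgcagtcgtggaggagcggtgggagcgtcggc
The window of AGO1 held 2 GC boxes and 1 CCAAT box, that of AGO3 held 2 GC boxes, and in that of AGO4 0 of the 4 motifs were found. Over 35097 promoter windows of the same length, 44.9% held a GC box, 34.6% a CCAAT box, 11.5% TATAAA and 7.25% CACGTG. CpG pairs numbered 29 in the AGO4 window, 30 in that of AGO1 and 50 in that of AGO3, against a median of 14 over all windows. A motif match is only a match of letters in this window, and no binding was measured.

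The other genes of the pathway were taken from 6 lists with 127 genes, of which 107 could be tested in their brightest probe set. Of these 35 rose and 38 fell, read against 20.6% of all tested genes in each direction. As deposited 31 rose and 3 fell, read against 20.3% of genes higher and 5.75% lower, so the falls depend on the scaling. The same shares stand behind the counts of each list below. After quantile normalization, rises outnumbered falls among Microprocessor cofactors, transport genes, turnover genes and partners of the silencing complex, and falls outnumbered rises among deadenylation factors and host genes. As deposited, rises outnumbered falls in all 6 lists. Differences between the lists were not tested.

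Among 15 tested cofactors of the primary transcript, 7 rose and 5 fell (median log2 change 0.11), or 6 and limma called 0 lower as deposited. SRRT, which links capped nuclear transcripts to DROSHA, averaged 2801 ± 257 in the DLEU1-downregulated clone and 1641 ± 53.3 in the control clone (SD, n = 2 arrays each), with limma adjusted p = 4.70e-05. The helicase DDX5, part of the larger Microprocessor, had 1 probe set that names it alone. This averaged 375 against 192 in the control clone (1.96-fold, limma adjusted p = 2.13e-04). KHSRP, which binds the loop of some precursors, was 1.41-fold and ADAR, an adenosine deaminase that edits double-stranded RNA, 1.29-fold the control level. All 4 also passed as deposited, while ADAR (adjusted p = 0.0663) and KHSRP (adjusted p = 0.0537) missed the threshold with eBayes without a trend. These 4 genes were named for the smallest p in the list, and the 5 that fell after quantile normalization are not among them. DROSHA rose 1.22-fold.

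Of 9 genes of nuclear transport, 4 rose and 3 fell (median log2 change 0.02), or 3 and 0 by limma as deposited. RCC1, which loads RAN with GTP in the nucleus, averaged 1575 in the DLEU1-downregulated clone and 845 in the control clone (1.87-fold, limma adjusted p = 2.36e-05). XPO1, the exporter of many proteins and RNAs, was 1.16-fold the control level, but its 3 tested probe sets spanned log2 changes of -0.40 to 0.42, with 2 called higher. That call was lost with eBayes without a trend (adjusted p = 0.188) and without DLEU1-downregulated replicate 2 (adjusted p = 0.075), the lowest of 14 alternatives being 5.04e-08. RAN itself averaged 7436 against 8316 in the control clone, a log2 change of -0.16 that turned to 0.12 as deposited (adjusted p = 0.631), and its other probe set rose (log2 change 0.18). The fall of RAN was also lost with a common trimmed mean (-0.20, adjusted p = 0.0545), with eBayes without a trend (adjusted p = 0.264) and without DLEU1-downregulated replicate 2 (adjusted p = 0.0615), within a range from 0.00712 to 0.631. Likewise TNPO1, an importin, had a log2 change of -0.35 after quantile normalization and 0.03 as deposited, and its 9 tested probe sets were divided, 1 higher and 6 lower. Its call was also lost with eBayes without a trend (adjusted p = 0.0664).

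Among 15 tested genes of precursor tailing and RNA turnover, 5 rose and 3 fell (median log2 change -0.12), or 5 and 0 by limma as deposited. The 5′ exonuclease of the cytoplasm, XRN1, averaged 327 ± 17.3 in the DLEU1-downregulated clone and 635 ± 20.7 in the control clone, and all 3 of its tested probe sets fell. XRN2, its nuclear relative, averaged 618 ± 7.46 against 396 ± 21.4 in the control clone, and both of its probe sets rose. TUT7, a terminal uridylyltransferase that tails let-7 precursors, had a log2 change of -0.86, with 3 of 5 tested probe sets lower. SND1, a nuclease associated with the silencing complex, was 1.33-fold the control level. The brightest probe sets of XRN1 and TUT7 did not pass as deposited (log2 change -0.59 with limma adjusted p = 0.0792, and -0.53 with adjusted p = 0.128). Over all tested probe sets, 1 of 3 for XRN1 and 0 of 5 for TUT7 fell as deposited. LIN28A, a blocker of let-7 maturation, was too dim to be tested, and LIN28B, named after its values were seen, did not pass (log2 change -0.25).

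Of 19 tested partners of the silencing complex and its loading chaperones, 8 rose and 3 fell (median log2 change 0.10), or 8 and 0 by limma as deposited. HSP90AA1, a chaperone that holds Argonaute open for loading, averaged 12321 in the DLEU1-downregulated clone and 9332 in the control clone (log2 change 0.40), and all 4 of its probe sets rose. With a common trimmed mean the change was 0.21 and missed the threshold (adjusted p = 0.056, the highest of 14 alternatives that began at 4.16e-10). The co-chaperones FKBP4 and DNAJB1 were 1.63-fold and 1.97-fold the control level. FXR1, an RNA-binding protein of the fragile X family, averaged 1431 against 2590 in the control clone (log2 change -0.85, limma adjusted p = 8.07e-06). As deposited the log2 change was -0.48 (adjusted p = 0.0931). Of its 6 tested probe sets, 4 fell after quantile normalization and 1 as deposited. The scaffold genes of the TNRC6 family, which tie Argonaute to deadenylases, were named after their values were seen. TNRC6B had a log2 change of -0.64 (adjusted p = 5.86e-04) and fell, but not as deposited (-0.32, adjusted p = 0.406), while TNRC6A (-0.05) and TNRC6C (-0.52) did not pass.

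Among 29 tested deadenylation and decapping factors, 13 fell and 8 rose (median log2 change -0.16). As deposited 6 rose and 2 fell (median 0.18). PAN2 and PAN3 form the deadenylase that starts tail shortening. PAN2 averaged 231 ± 7.79 in the DLEU1-downregulated clone and 507 ± 35.3 in the control clone, a log2 change of -1.08, and PAN3 averaged 1261 ± 54.4 against 2246 ± 86.2 in the control clone, a log2 change of -0.82. CNOT6L, a catalytic subunit of the CCR4-NOT deadenylase, had a log2 change of -0.85. BTG1, an antiproliferative protein that binds the same complex, showed -1.06 on the same scale, and 2 of its 3 probe sets fell. PAN2 and BTG1 passed as deposited as well (log2 changes -0.76 and -0.70), whereas PAN3 (-0.46, adjusted p = 0.118) and CNOT6L (-0.50, adjusted p = 0.114) did not.

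**Figure D4:**
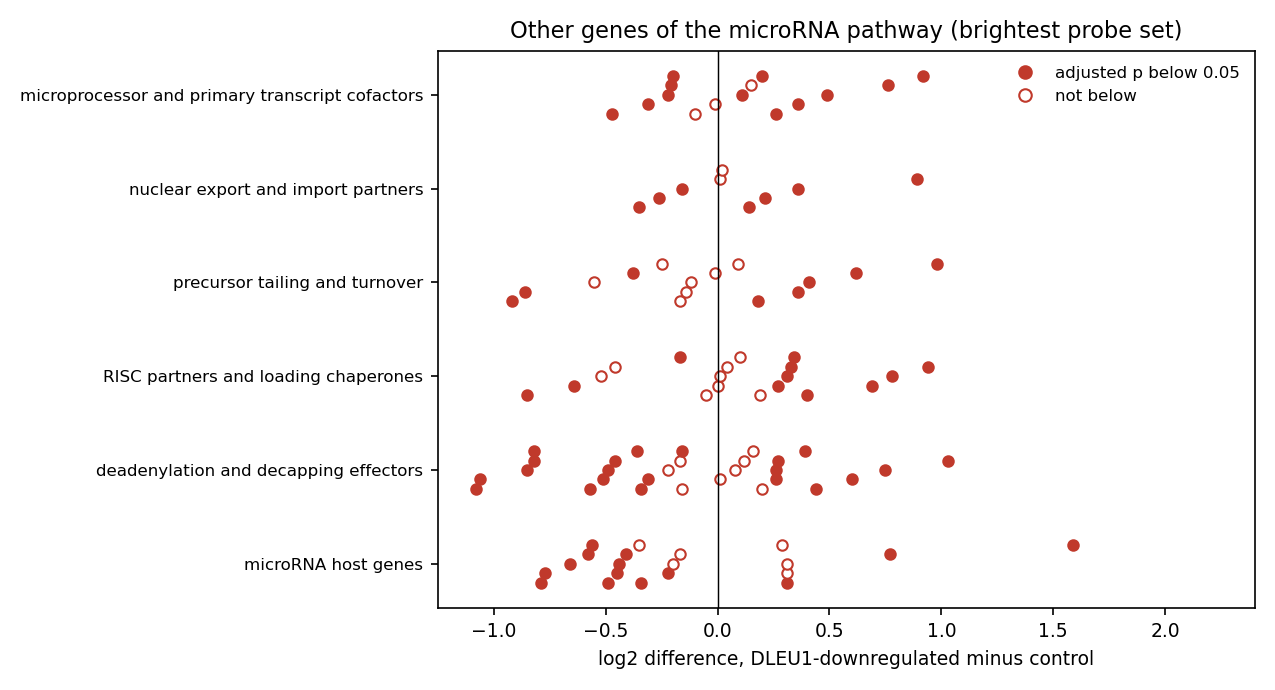
The log2 difference, DLEU1-downregulated minus control, of the 107 tested genes in 6 lists, by brightest probe set after quantile normalization. Each point is a gene, filled where limma's adjusted p passed 0.05, and the height within a list only spreads the points. Points lie on both sides of 0 in every list, and MIR99AHG is the farthest right at 1.59.

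MicroRNA host genes are genes whose transcripts contain microRNA hairpins, and the arrays measured the host transcript, not the mature microRNA. Of 20 tested hosts, 3 rose and 11 fell (median log2 change -0.34), beside 20.6% of all tested genes in each direction. As deposited 3 rose and 1 fell (median -0.10), beside 20.3% of genes higher and 5.75% lower. MCM7, a replication helicase subunit that hosts the miR-106b cluster, averaged 3295 in the DLEU1-downregulated clone and 1922 in the control clone (1.71-fold, limma adjusted p = 1.75e-05). MIR99AHG, a non-coding host, read 47.2 and 57.5 against 6.7 and 6.66 in the control clone. These control values lie under the added 16, so its log2 change of 1.59 is set in part by that number, and 2 of its 3 probe sets were too dim to be tested. SMC4, a condensin subunit that hosts miR-15b and miR-16-2, averaged 3025 against 4476 in the control clone (log2 change -0.56, adjusted p = 1.86e-05), and -0.19 as deposited (adjusted p = 0.525). CTDSP1, a phosphatase gene that hosts miR-26b, had a log2 change of -0.79, and -0.48 as deposited (adjusted p = 0.181). DLEU2, the neighbour of DLEU1 that hosts miR-15a and miR-16-1, was named after its values were seen. It read 771 and 774 in the DLEU1-downregulated clone, against 1036 and 1149 in the control clone, in a probe set prone to cross-hybridisation (216870_x_at). Its log2 change of -0.49 (adjusted p = 7.42e-04) was -0.14 as deposited (adjusted p = 0.741). Only the brightest probe set of DLEU2 was examined.

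Selected mature sequences of the DLEU2, SMC4 and MCM7 hosts, 1 arm of each hairpin, are shown because several share a seed (capitals, bases 2 to 8); the opposite arms, and the other microRNA within DLEU2, have other seeds and are not printed. They come from RefSeq on GRCh38.p14, 5′ to 3′. The seed AGCAGCA is shared by the 5p arms of miR-15a, miR-15b and miR-16, whose hosts DLEU2 and SMC4 were lower after quantile normalization, and miR-16-5p is encoded in both hosts.
hsa-miR-15a-5p: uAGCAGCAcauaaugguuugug
hsa-miR-15b-5p: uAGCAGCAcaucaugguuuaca
hsa-miR-16-5p: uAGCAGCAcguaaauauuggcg
The seed AAAGUGC is shared by 2 microRNAs of MCM7, which rose on both scales. The seed of the other microRNA shown, miR-25-3p, differs from the rest printed here. It is also the seed of miR-92a-3p in MIR17HG, a host that was too dim to be tested.
hsa-miR-106b-5p: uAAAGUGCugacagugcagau
hsa-miR-93-5p: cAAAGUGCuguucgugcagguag
hsa-miR-25-3p: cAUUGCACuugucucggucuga
No level of these microRNAs was measured, and a host's change does not give that of its microRNA.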

How the data were processed

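The authors deposited 1 table of linear signal intensity values for 54613 probe sets and 62 control probe sets on 4 arrays, made with MAS5 per the submitters' processing notes. The MAS5 version, target intensity and detection calls were not stated in any source at hand. The deposited trimmed means (2% left out at each end) differed between arrays, so values were quantile normalized without the control probe sets, and 16 was added before log2. The 40% dimmest probe sets by mean log2 value were left out, leaving 32768. The difference was tested with limma 3.58.1 in R 4.3.3 (lmFit, eBayes with an intensity trend, group as the only term), Benjamini-Hochberg adjusted over all tested probe sets at 0.05. The prior degrees of freedom were 6.76, and infinite on the values as deposited. Gene symbols came from the platform annotation of 2016, updated through RefSeq (GRCh38.p14). The annotation gave 1 symbol to 41091 probe sets, several to 1801 and none to 11721, and 41037 were matched to RefSeq. Probe sets with several symbols were assigned to no gene, in the other lists as well as among the machinery genes. A gene stands for its brightest probe set. Promoters of 9 of the 10 genes were found in the RefSeq table, AGO2 excepted.

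Genes named are every probe set of the 10 genes, DLEU1 and up to 4 genes with the smallest p in each of the 6 other lists, with LIN28A, LIN28B, TNRC6A, TNRC6B, TNRC6C and DLEU2 added after their values were seen. The genes added later were read in their brightest probe set only. Members and lists were chosen with earlier results of these data known. Same-numbered arrays did not deviate together (r = -0.014 across probe sets), so the replicate number was not used as a pairing. Alternatives were other scalings, pseudocounts, dim filters and thresholds, eBayes without a trend, the replicate block, omitting single arrays, dropping _x_at probe sets, and averaging the probe sets of a gene. The number of arrays limits the precision.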

Additional observations from a re-analysis of the deposited data

How the results depend on the processing

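Of 678 recomputed log2 changes of single probe sets, 614 kept their direction and their side of the threshold, 32 lost the call, 12 gained it and 20 changed sign. The 678 cover the tested probe sets of the machinery genes, that of DLEU1, and the brightest of the genes named for the smallest p in each other list. The last were picked by p in these same data, and many machinery probe sets were not called in any setting. The share that kept its label is therefore no measure of how stable the results are. Over all tested probe sets, 5588 rose and 5485 fell. The scaling moved these counts: as deposited 5620 rose and 1673 fell, with median centring 10420 and 2482, and 5095 and 6278 after scaling to a common trimmed mean, which shifts the balance the other way. With eBayes without a trend 3576 rose and 3580 fell, and at a threshold of 0.01 it was 3596 and 3562. Leaving out 1 array gave 3356 to 5310 rises and 3654 to 4768 falls, lowest without DLEU1-downregulated replicate 1, and 3502 rises without DLEU1-downregulated replicate 2. The share of all tested genes called was computed only after quantile normalization and as deposited. Counts of machinery genes and other pathway genes in the further settings have no such share beside them and are not read as a result. Among the 9 machinery genes, rises numbered 7 with median centring and 2 with eBayes without a trend. Their falls numbered 0 as deposited, with median centring, at a threshold of 0.01 and with the probe sets of a gene averaged, where AGO4 was lost, and 2 with a common trimmed mean, with the filter at the 60th percentile and without _x_at probe sets, where 219426_at of AGO3 joined it. Leaving out an array gave 0 to 1 falls. Of the 107 other genes, 14 rose and 22 fell with eBayes without a trend, and the falls numbered 3 as deposited 11 with median centring and 35 after scaling to a common trimmed mean. With the replicate block 5658 probe sets rose and 5527 fell, with 4 rises and 1 fall among the machinery genes, so the block moved no count by more than 1.5 times, and the numbers gave no sign of a pairing. Changes of sign were small. As deposited and with median centring, DICER1 206061_s_at was 0.22 and 0.26, PRKRA 237107_at 0.13 and 0.17, AGO3 228932_at 0.12 and 0.16, TNPO1 0.03 and 0.07, and RAN 0.12 and 0.17. DICER1 216260_at was -0.04 with a common trimmed mean. Leaving out 1 array moved 206061_s_at from -0.04 to 0.02, TARBP2 203677_s_at from -0.0044 to 0.18, TARBP2 239389_at from -0.51 to 0.0048, PRKRA 237107_at from -0.19 to 0.10, AGO3 228932_at from -0.27 to 0.16 and AGO4 219190_s_at from -0.81 to 0.02. Apart from fewer probe sets tested or fewer arrays, the cause was not tested. Dim probe sets, near the added 16, are limited by signal over background, for which no detection calls were used.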
